A study of Mus musculus with 12 samples.

Results

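The Hoxa genes encode homeobox transcription factors and lie side by side on mouse chromosome 6. Their RNA was described in leukaemic stem cells from a pair of mouse leukaemias, with and without a mutation of Msi2. The members were the 9 genes Hoxa2, Hoxa3, Hoxa4, Hoxa5, Hoxa6, Hoxa7, Hoxa9, Hoxa10 and Hoxa11, found as every probe set whose only gene symbol was one of these. A probe set is a group of short array probes read as 1 value. Of 18193 genes named on the arrays, 8 of the 9 members had a probe set, 15 probe sets in all of 45037, and Hoxa6 is not analysed here.

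RNA was measured on 12 Affymetrix arrays in 4 groups of 3. All groups began with stem and progenitor cells (KLS cells) taken from mice that were either homozygous for a gene trap in Msi2 (Msi2 Gt/Gt, called Msi2 mutant) or wild-type. Cells infected with BCR-ABL/NUP98-HOXA9 gave bcCML, blast crisis chronic myeloid leukaemia, and cells infected with MLL-AF9 gave AML, acute myeloid leukaemia, after transplantation. The groups were bcCML Msi2 mutant, bcCML wild-type, AML Msi2 mutant and AML wild-type. Every sample, wild-type ones included, carries the strain label B6;CB-Msi2Gt(pU-21T)2Imeg, and no sample was treated. The bcCML cells were sorted as Lin- cells and the AML cells as Lin-Sca1-ckit+ cells, so oncogene and sorting gate change together and cannot be told apart between the leukaemias. The ages of the mice and the number of mice behind each array are not given in the labels, which call the arrays biological replicates.

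In blood formation, the genes from Hoxa5 to Hoxa10 are most active in stem and early progenitor cells and are shut down as myeloid cells mature. MLL-AF9 joins the DNA-targeting part of the chromatin regulator MLL to AF9, a member of complexes that drive transcript elongation, and holds Hoxa genes and their partner Meis1 in an active state. NUP98-HOXA9 joins part of a nuclear pore protein to the DNA-binding homeodomain of HOXA9. Hox proteins bind DNA together with PBX and MEIS proteins.

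In RefSeq order along chromosome 6 the members run Hoxa2, Hoxa3, Hoxa4, Hoxa5, Hoxa6, Hoxa7, Hoxa9, Hoxa10, Hoxa11, and the models of Hoxa4, Hoxa5 and Hoxa6 lie inside the longest Hoxa3 model. The promoters of 3 neighbours are shown because they stand for the 3 kinds of result that follow: Hoxa9 was read far above the filter in every group, Hoxa10 differed between the leukaemias and Hoxa11 was at the floor. They are RefSeq windows of 300 bases from GRCm38.p6, minus strand, 250 before to 50 after a start, with Hoxa10 listed with a pair of starts. Capitals mark matches, on either strand, to any of 6 motifs. These were the TATA box as TATAAA, the box bound by the factor NF-Y as CCAAT, the GC box as GGGCGG, a joint motif of Hox and Pbx proteins as TGATNNAT, the Meis motif as TGACAG and the motif of caudal-type factors as TTTATNG.
Hoxa9 (chr6:52227321-52227620): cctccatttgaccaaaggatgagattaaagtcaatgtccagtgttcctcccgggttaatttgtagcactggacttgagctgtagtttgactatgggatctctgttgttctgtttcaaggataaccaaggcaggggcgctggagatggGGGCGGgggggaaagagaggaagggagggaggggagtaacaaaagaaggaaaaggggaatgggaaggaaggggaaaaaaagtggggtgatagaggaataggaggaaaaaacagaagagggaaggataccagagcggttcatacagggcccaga
Hoxa10, start nearer to Hoxa9 (chr6:52234890-52235189): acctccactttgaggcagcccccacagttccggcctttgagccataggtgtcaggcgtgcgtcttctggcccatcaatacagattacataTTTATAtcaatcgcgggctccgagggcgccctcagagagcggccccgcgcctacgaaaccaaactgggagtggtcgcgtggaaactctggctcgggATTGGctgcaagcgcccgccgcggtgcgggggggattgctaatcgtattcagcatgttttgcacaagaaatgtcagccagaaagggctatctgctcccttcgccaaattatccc
Hoxa10, start nearer to Hoxa11 (chr6:52240805-52241104): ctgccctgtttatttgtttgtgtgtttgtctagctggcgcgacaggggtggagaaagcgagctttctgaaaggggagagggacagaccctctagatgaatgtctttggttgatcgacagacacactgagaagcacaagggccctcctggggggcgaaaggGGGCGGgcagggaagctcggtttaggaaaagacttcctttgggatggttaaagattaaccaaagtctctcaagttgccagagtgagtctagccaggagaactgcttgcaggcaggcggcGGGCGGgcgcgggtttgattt
Hoxa11 (chr6:52245761-52246060): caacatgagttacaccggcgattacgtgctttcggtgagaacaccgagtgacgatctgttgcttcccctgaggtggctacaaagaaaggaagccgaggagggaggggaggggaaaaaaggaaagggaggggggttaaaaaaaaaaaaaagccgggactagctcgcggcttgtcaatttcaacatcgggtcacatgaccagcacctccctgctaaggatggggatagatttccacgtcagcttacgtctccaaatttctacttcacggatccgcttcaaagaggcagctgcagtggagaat

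The Hoxa9 window held 4 CpG dinucleotides and the Hoxa11 window 15, against 21 and 12 in the Hoxa10 windows nearer to Hoxa9 and nearer to Hoxa11. The median of 32851 promoters of this length was 7. The capitals in the Hoxa10 window nearer to Hoxa9 are a TATA box, found in 13.6% of all promoters, and a CCAAT box, found in 37.4%. The Hoxa9 window held 1 GC box and the Hoxa10 window nearer to Hoxa11 held 2, a motif of 35.7% of promoters. None of these 4 windows held the joint Hox and Pbx motif (8.85% of promoters), the Meis motif (19.2%) or the caudal-type motif (10.9%). These matches describe the letters, and which Hoxa10 start the array reads was not tested.

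Levels are GCRMA intensity units, with a floor of 4.49 on every array, and levels of different probe sets are not compared. A gene was tested where a probe set exceeded log2 4, which is 16 units, on at least 3 of the 12 arrays. This left 10817 genes, among them 5 of the 9 Hoxa genes: Hoxa3, Hoxa5, Hoxa7, Hoxa9 and Hoxa10. Msi2 itself, in 1 probe set, read 487 to 721 units in bcCML mutant arrays against 2583 to 4579 in bcCML wild-type arrays. In AML it read 52.9 to 86.9 in mutant against 181 to 430.3 in wild-type arrays. Other Msi2 probe sets gave falls of different size. Another read 580 to 1111 in mutant against 2655 to 5110 in wild-type bcCML, and 6.73 to 17.8 against 147 to 449 in AML. A further one read 891 to 1584 against 2123 to 3342 in bcCML, and 9.53 to 10.9 against 131 to 291 in AML. A dimmer one overlapped in bcCML, at 119 to 248 against 247 to 541. Where these probe sets lie relative to the trap is not given, so the Msi2 RNA remaining is not settled. Of 6 T and NK cell markers, Cd3e, Cd3g, Cd3d and Cd8a were at or below 16 units in every group, Klrd1 reached 96.5 in bcCML mutant and at most 7.18 elsewhere, and Nkg7 read 7615 to 10650.1 in bcCML and 1482 to 8026 in AML. Of 4 B cell markers read, Pax5 stayed at 4.5 to 4.52 units, while Cd79b read 11.4 to 203 in bcCML and 470 to 1098 in AML, and Ebf1 17.5 to 68.4 and Cd79a 7.16 to 26.0 over all arrays. AML mutant array 1 stood apart from the other arrays on the second principal component (-58.2, others -31.9 to 20.0), which held 4.90% of the variance.

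Hoxa10 was the Hoxa gene that separated the leukaemias. It encodes a factor of early progenitors whose overexpression in mouse marrow leads to leukaemia. Its probe set 1431475_a_at read 226, 476 and 538 units in bcCML mutant arrays, 283, 356 and 481 in bcCML wild-type arrays, 2117, 1834 and 2436 in AML mutant arrays and 1962, 2395 and 1918 in AML wild-type arrays. All 6 bcCML arrays lay below all 6 AML arrays, and mutant and wild-type arrays overlapped within each leukaemia. The group means were 413 ± 165 units in bcCML mutant, 373 ± 99.9 in bcCML wild-type, 2129 ± 301 in AML mutant and 2091 ± 264 in AML wild-type (SD, n = 3 each). Between the wild-type leukaemias Hoxa10 was 5.71-fold lower in bcCML, a log2 difference of -2.51 ± 0.31 (SE; 95% interval -3.21 to -1.81; limma adjusted p = 0.000163 over all genes). Between the mutant leukaemias it was 5.47-fold lower in bcCML (log2 -2.45 ± 0.31, interval -3.15 to -1.75, limma adjusted p = 0.000143). The other Hoxa10 probe set, 1446408_at, read 4.6 to 7.42 units over all arrays, did not pass the filter and was not tested. The Hoxa10 differences therefore rest on 1431475_a_at alone. A probe set so near the floor cannot show whether the leukaemias differ.

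**Figure D1:**
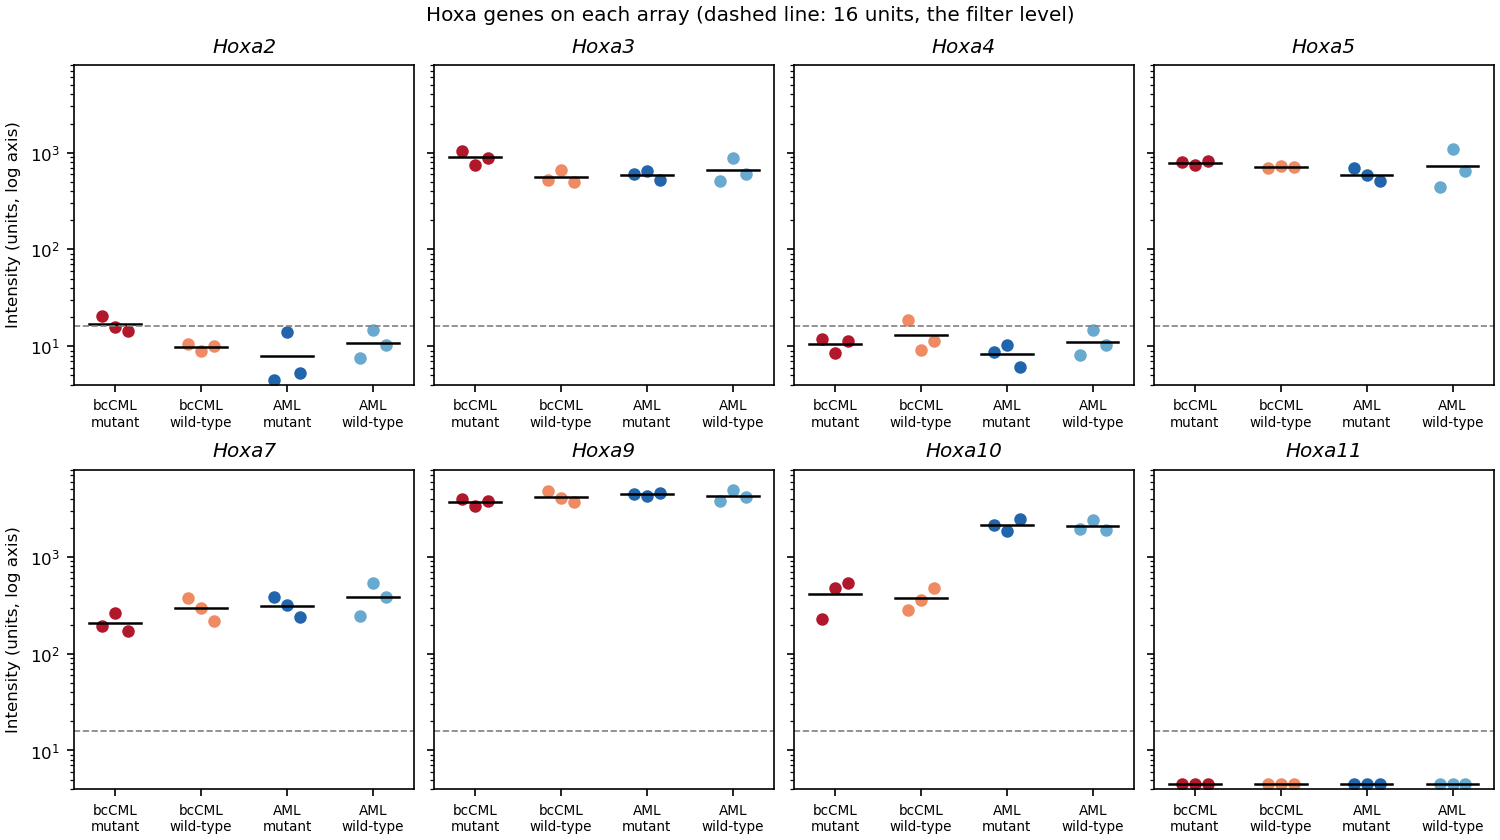
Intensity of the 8 Hoxa genes with a probe set, the brightest of each gene, on each of the 12 arrays (log axis, units), in order along the cluster; points are arrays in the 4 groups, lines are group means and the dashed line is the filter level of 16 units. Hoxa10 lies between 226 and 538 units on the 6 bcCML arrays and between 1834 and 2436 on the 6 AML arrays, while the arrays of the leukaemias overlap for Hoxa7 and Hoxa9.

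In these bulk samples, fewer cells of a type and less RNA per cell cannot be told apart. Marker levels of mature cells differed between the leukaemias as well, though both sorts were of Lin- cells, which leave out cells bearing mature lineage markers. The summed intensity of 7 monocyte and macrophage markers was 1125 to 1732 units in bcCML mutant, 662 to 1314 in bcCML wild-type, 4158 to 24603.5 in AML mutant and 14742 to 16069 in AML wild-type arrays, with Csf1r, Cd14, Itgam and Mpeg1 at or below 16 units in both bcCML groups. Of 8 granulocyte markers 7 were read, with sums of 3092 to 14577, 9778 to 32503, 135379 to 167404 and 62859 to 115626 units in the same order of groups. The 5 megakaryocyte markers ran the other way, with 3856 to 11388 units in bcCML mutant, 3852 to 8498 in bcCML wild-type, 46.1 to 211 in AML mutant and 29.4 to 41.1 in AML wild-type arrays. The 3 erythroid markers read summed to 516 to 927 units in bcCML mutant, 369 to 985 in bcCML wild-type, at most 18.9 in AML mutant and 17.05 to 22.5 in AML wild-type arrays. The part of these cell types in the Hoxa10 difference was not tested.

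Hoxa9, a factor that sustains stem and progenitor cells and the gene carried in part by NUP98-HOXA9, was bright in all 4 groups. Its probe set 1455626_at read 3992, 3352 and 3786 units in bcCML mutant, 4785, 4087 and 3668 in bcCML wild-type, 4447, 4289 and 4527 in AML mutant and 3810.3, 4906 and 4138 in AML wild-type arrays. The wild-type arrays of the leukaemias overlapped, and the bcCML mutant arrays lay below the AML mutant arrays. The log2 difference was -0.04 ± 0.15 between the wild-type leukaemias (bcCML minus AML, interval -0.36 to 0.29, limma adjusted p = 0.869) and -0.26 ± 0.15 between the mutant ones (interval -0.58 to 0.07, adjusted p = 0.184). These intervals leave out a difference of the size seen for Hoxa10. Whether the Hoxa9 probe sets also read the introduced NUP98-HOXA9 transcript was not tested, since probe sequences were not used here.

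Another Hoxa9 probe set, 1421579_at, read 497, 481 and 557 units in bcCML mutant, 988, 720.0 and 527 in bcCML wild-type, 810.1, 769 and 716 in AML mutant and 569, 876 and 801 in AML wild-type arrays. Its bcCML mutant arrays lay below the AML mutant arrays, as for the first probe set. Tested among 23529 probe sets, its difference between the mutant leukaemias was -0.58 on the log2 scale with a limma adjusted p of 0.0705.

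The Hoxa10 difference can also be set against its neighbours on the same arrays, as a description and with no test, since it was chosen after the separation of Hoxa10 had been seen. Its log2 ratio to Hoxa9 averaged -3.38 ± 0.62 on the bcCML arrays and -1.05 ± 0.12 on the AML arrays (SD, n = 6 each), and the highest bcCML value, -2.81, was below the lowest AML value, -1.23. The difference of the ratio, bcCML minus AML, was -2.34 over Hoxa9, -2.02 over Hoxa7, -2.73 over Hoxa5 and -2.67 over Hoxa3. A ratio shows unequal change and not that the other gene was level, and different probe sets are compared here only in how they differ between groups.

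Hoxa3, best known for its role in pharyngeal and thymus development, was higher in mutant bcCML than in mutant AML. Its brightest probe set, 1427433_s_at, read 1052, 741 and 889 units in bcCML mutant, 523, 661 and 496 in bcCML wild-type, 596, 639 and 527 in AML mutant and 514, 882 and 605 in AML wild-type arrays. The bcCML mutant arrays lay above the arrays of bcCML wild-type and of AML mutant, and overlapped those of AML wild-type through array 2 of that group. The difference was 0.60 ± 0.22 on the log2 scale between the mutant leukaemias (1.51-fold higher in bcCML, interval 0.11 to 1.08, limma adjusted p = 0.0475), and -0.23 ± 0.22 between the wild-type ones (interval -0.71 to 0.26, adjusted p = 0.454). The first of these calls was lost with limma when any of 8 arrays was left out: adjusted p was 0.152 without bcCML mutant array 1, 0.102 without bcCML mutant array 3, 0.0589 without bcCML wild-type array 1, 0.0591 without bcCML wild-type array 3, 0.0808, 0.0660 and 0.128 without AML mutant arrays 1, 2 and 3, and 0.0577 without AML wild-type array 3. With the replicate number as a block, limma gave an adjusted p of 0.0575 for it.

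The other Hoxa3 probe sets did not all go the same way. Probe set 1452421_at read 221, 184 and 181 units in bcCML mutant, 136, 136 and 137 in bcCML wild-type, 119.5, 136 and 126 in AML mutant and 110.3, 214 and 141 in AML wild-type arrays, and differed by 0.62 between the mutant leukaemias (limma adjusted p = 0.0417 over all probe sets). Probe set 1429398_at, between 13.7 and 75.7 units, differed by -0.17 (adjusted p = 0.803), and 1431392_at stayed at 4.49 to 6.86 units on all arrays. The brightest probe set, tested over all probe sets in the same way, had a limma adjusted p of 0.0532. Averaged over the 3 probe sets that passed the filter, the Hoxa3 difference was 0.35 with a limma adjusted p of 0.309. The suffix of the brightest one, _s_at, marks probes shared by several transcripts, and which transcripts of the long Hoxa3 model each probe set reads was not tested.

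Hoxa5, which in human progenitors favours the myeloid over the erythroid fate, read in probe set 1448926_at 804, 751 and 814 units in bcCML mutant, 696, 737 and 704 in bcCML wild-type, 688, 583 and 509 in AML mutant and 444, 1091 and 643 in AML wild-type arrays. The bcCML mutant arrays lay above those of AML mutant, and AML wild-type spanned both bcCML groups. The difference between the mutant leukaemias was 0.42 ± 0.27 (log2, bcCML minus AML, interval -0.17 to 1.02, limma adjusted p = 0.228), and between the wild-type ones 0.07 ± 0.27 (adjusted p = 0.860). Its other probe set, 1443803_x_at, of the kind whose probes can bind other transcripts, differed by 0.84 between the mutant leukaemias with a limma adjusted p of 0.0417 over all probe sets. Of the 9 Hoxa probe sets that passed the filter, 3 were called between the mutant leukaemias, 1 each of Hoxa3, Hoxa5 and Hoxa10, beside 41% of all probe sets tested.

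Hoxa7, another target of MLL fusions, read in probe set 1449499_at 195, 262 and 171 units in bcCML mutant, 376, 295 and 219 in bcCML wild-type, 385, 315 and 241 in AML mutant and 245, 533 and 381 in AML wild-type arrays. Every pair of groups overlapped. The log2 difference was -0.58 ± 0.31 between the mutant leukaemias (bcCML minus AML, interval -1.28 to 0.12, limma adjusted p = 0.160) and -0.34 ± 0.31 between the wild-type ones (adjusted p = 0.425).

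Between the wild-type leukaemias 1 of the 5 tested Hoxa genes was called, Hoxa10, beside 36.9% of all tested genes, and 19.3% of all genes were called lower in bcCML. Between the mutant leukaemias 2 of 5 were called, Hoxa3 higher and Hoxa10 lower, beside 45.1% of all genes. Of all genes, 23.2% were called higher in mutant bcCML and 21.9% lower. Arrays did not overlap for 1 of 5 Hoxa genes between the wild-type leukaemias, beside 52.4% of all genes, and for 4 of 5 between the mutant ones, beside 55.5%. The median log2 difference of the 5 was -0.23 between the wild-type leukaemias and -0.26 between the mutant ones, against medians of 0.00 and 0.03 over all genes tested. The counts of Hoxa genes called were therefore no higher than the share of all genes, and the size of the Hoxa10 difference stood out among the 5.

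**Figure D2:**
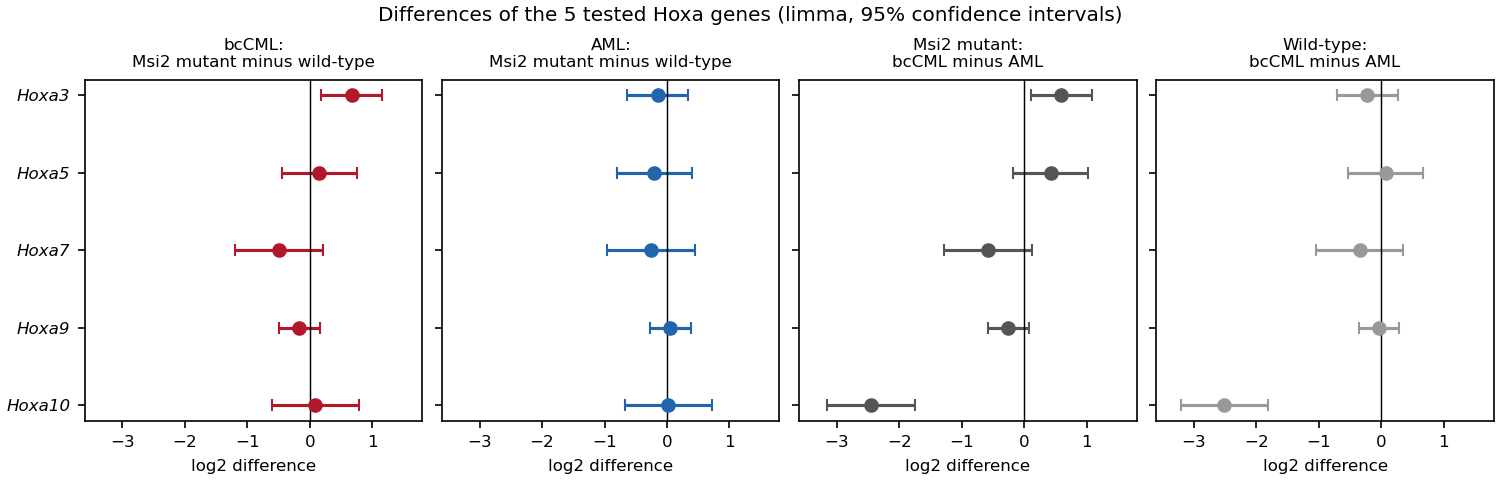
Log2 difference of each tested Hoxa gene, in order along the cluster, with 95% intervals from limma, for Msi2 mutant minus wild-type in each leukaemia and for bcCML minus AML in each genotype. The Hoxa10 intervals for bcCML minus AML lie between -3.21 and -1.75, and all 10 intervals for the Msi2 effect but that of Hoxa3 in bcCML (0.18 to 1.16) include 0.

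The Msi2 mutation moved no tested Hoxa gene past the threshold in either leukaemia. In bcCML, Hoxa3 differed most, by 0.67 ± 0.22 on the log2 scale (mutant minus wild-type, 1.59-fold, interval 0.18 to 1.16), with an unadjusted limma p of 0.0117 and an adjusted p of 0.468. The arrays of its brightest probe set did not overlap, and its probe sets 1452421_at and 1429398_at differed by 0.51 and 0.44 (limma adjusted p = 0.590 and 0.875 over all probe sets). Hoxa5 differed by 0.15 ± 0.27 (adjusted p = 0.943), also with mutant arrays above wild-type ones. Hoxa7 differed by -0.49 ± 0.31 (adjusted p = 0.727), Hoxa9 by -0.17 ± 0.15 (interval -0.49 to 0.16, adjusted p = 0.833) and Hoxa10 by 0.09 ± 0.31 (interval -0.61 to 0.78, adjusted p = 0.986). The other Hoxa9 probe set, 1421579_at, differed by -0.50 (interval -1.02 to 0.02, limma adjusted p = 0.636 over all probe sets).

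With limma, 0 of 5 Hoxa genes were called in bcCML, beside 0.139% of all genes, and 1 of 5, Hoxa3, had an unadjusted p under 0.05, beside 8.32% of all genes. The arrays of mutant and wild-type bcCML did not overlap for 2 of 5 Hoxa genes, Hoxa3 and Hoxa5, beside 15.9% of all genes. The median of the 5 was 0.09, against -0.02 over all genes. Paired by replicate number 1, 2 and 3, the mutant minus wild-type differences were 1.01, 0.17 and 0.84 for Hoxa3 and 0.21, 0.03 and 0.21 for Hoxa5. Any pairing gives each of these genes 1 sign, since their arrays did not overlap, so the pairs add nothing to that. The paired differences were -0.94, -0.17 and -0.36 for Hoxa7, -0.26, -0.29 and 0.05 for Hoxa9, and -0.32, 0.42 and 0.16 for Hoxa10. The share of all genes with 1 sign in all 3 pairs was not computed, so the signs are a description only. With the replicate block on the 6 bcCML arrays, limma adjusted p was 0.364 for Hoxa3, 0.586 for Hoxa5 and 0.406 for Hoxa7. The summed granulocyte markers overlapped between these groups (3092 to 14577 units in mutant and 9778 to 32503 in wild-type arrays), as did the megakaryocyte sums. Sums can hide single markers. Of the granulocyte markers Ngp alone did not overlap, at 40.2 to 148 units in mutant and 362 to 635 in wild-type arrays. Of the monocyte and macrophage markers Cd68 alone did not, at 951 to 1612 in mutant and 339 to 811 in wild-type arrays.

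In AML, Hoxa9 differed by 0.05 ± 0.15 between mutant and wild-type cells (log2, interval -0.27 to 0.38, limma adjusted p = 0.953) and Hoxa10 by 0.02 ± 0.31 (interval -0.67 to 0.72, adjusted p = 0.999). The differences were -0.15 ± 0.22 for Hoxa3, -0.20 ± 0.27 for Hoxa5 and -0.26 ± 0.31 for Hoxa7, with limma adjusted p of 0.855, 0.835 and 0.813. Mutant and wild-type arrays overlapped for each of the 5, beside 16.7% of all genes whose arrays did not overlap. With limma 0 of 5 were called, beside 1.52% of all genes, and 0 of 5 had an unadjusted p under 0.05. Of all genes, 14.2% had such a p. The median was -0.15, against -0.05 over all genes. Granulocyte marker sums were higher on every AML mutant array (135379 to 167404 units) than on AML wild-type arrays (62859 to 115626), and their part in these values was not tested.

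The mean of the Msi2 effects in both leukaemias called 0 of 5 Hoxa genes with limma, beside 0.471% of all genes, with 0 of 5 at an unadjusted p under 0.05, beside 13.7% of all genes. Its values were 0.26 ± 0.16 for Hoxa3, -0.03 ± 0.19 for Hoxa5, -0.37 ± 0.22 for Hoxa7, -0.06 ± 0.10 for Hoxa9 and 0.05 ± 0.22 for Hoxa10 (log2 ± SE). The Msi2 effect in bcCML minus that in AML was 0.82 ± 0.31 for Hoxa3 (limma unadjusted p = 0.0238, adjusted p = 0.432), 0.35 ± 0.38 for Hoxa5, -0.24 ± 0.45 for Hoxa7, -0.22 ± 0.21 for Hoxa9 and 0.06 ± 0.44 for Hoxa10. This interaction called 0 of 5 Hoxa genes and 0% of all genes with limma, where 1 of 5 Hoxa genes and 1014 of all 10817 genes had an unadjusted p under 0.05. Within AML and within bcCML, the interval of each Hoxa gene reached beyond 0.3 on at least 1 side of 0, so small differences were not detectable with 3 arrays a group.

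The remaining members read little or nothing. Hoxa2, which patterns the hindbrain, read 14.3 to 20.3 units in bcCML mutant, 8.97 to 10.7 in bcCML wild-type, 4.51 to 14.05 in AML mutant and 7.62 to 14.7 in AML wild-type arrays, with 1 array above 16 units. Hoxa4 had a probe set at 8.58 to 11.9 units in bcCML mutant, 9.06 to 18.9 in bcCML wild-type, 6.03 to 10.2 in AML mutant and 8.16 to 14.8 in AML wild-type arrays, also with 1 array above 16. Hoxa11, a gene of limb and uterus development, read 4.49 to 4.53 units on all 12 arrays. Hoxa13, the gene beyond it and no member, read 4.49 to 4.52 units. These genes were not tested, and a value at the floor sets only an upper bound on what a probe set could show.

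The Hoxa genes also varied from array to array within a leukaemia. AML wild-type array 2 was the highest AML array for Hoxa3, Hoxa5, Hoxa7 and Hoxa9, at 0.52, 0.79, 0.66 and 0.18 above the AML mean on the log2 scale, and AML wild-type array 1 was the lowest for Hoxa3, Hoxa5 and Hoxa9, at -0.26, -0.51 and -0.19. Hoxa10 spanned 0.41 over the AML arrays and 1.25 over the bcCML arrays, while Hoxa5 spanned 1.30 over the AML arrays and 0.23 over the bcCML arrays. In bcCML, wild-type array 1 was highest for Hoxa7 and Hoxa9 (0.62 and 0.29), and mutant array 1 was highest for Hoxa3 (0.59) and lowest for Hoxa10 (-0.73). The genes thus did not share 1 order of arrays across both leukaemias.

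**Figure D3:**
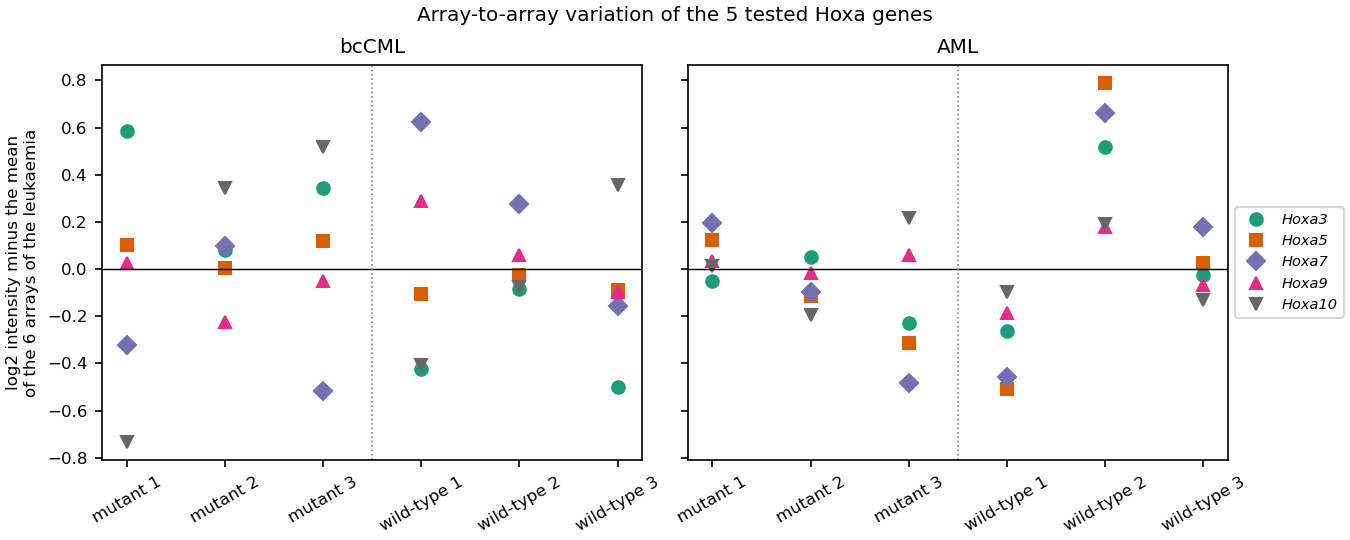
Deviation of each tested Hoxa gene from its mean over the 6 arrays of a leukaemia (log2), for each array, with bcCML Msi2 mutant and wild-type before AML Msi2 mutant and wild-type. AML wild-type array 2 is high for Hoxa3, Hoxa5, Hoxa7 and Hoxa9, and bcCML mutant array 1 is low for Hoxa10 at -0.73.

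As a description, with the arrays sharing their normalization, Pearson's r of these deviations over 12 arrays was 0.68 for Hoxa3 with Hoxa5 and -0.01 for Hoxa3 with Hoxa7. Within each leukaemia, over 6 arrays each, where the genotype difference is part of the deviations, r for Hoxa3 with Hoxa7 was -0.64 in bcCML and 0.90 in AML, and for Hoxa5 with Hoxa7 -0.78 in bcCML and 0.96 in AML. Of the 10 pairs of tested Hoxa genes 3 had a positive r in bcCML and 10 in AML, where AML wild-type array 2 was the highest of the AML arrays for Hoxa3, Hoxa5, Hoxa7 and Hoxa9. For Hoxa3 with Hoxa5 it was 0.96 in bcCML and 0.95 in AML, and for Hoxa7 with Hoxa9 0.57 in bcCML and 0.63 in AML. Over all 12 arrays r was 0.57 for Hoxa5 with Hoxa7 and 0.58 for Hoxa7 with Hoxa9. For each of these pairs r was 0.07 once the 2 arrays farthest from the median of the first-named gene were left out. These were AML wild-type arrays 1 and 2 for Hoxa5 with Hoxa7. For Hoxa7 with Hoxa9 they were AML wild-type array 2 and bcCML wild-type array 1. Done the same way, r for Hoxa3 with Hoxa5 was 0.52. Leaving out a gene's extreme arrays tends to lower r, so this does not show what a correlation rests on. The genes whose deviations were most like those of Hoxa9 over the 12 arrays were Ppm1l (r = 0.852), Pcnx (0.850), Arhgdib (0.844) and Cnpy3 (0.837), followed by Dcaf5, Kctd20, Cdc42ep4 and Tbc1d1. Those most like the mean of the 5 Hoxa genes were Lgals3bp (0.885), Dhx34 (0.871), 4930404N11Rik (0.869) and Mylpf (0.868), followed by Lrrc20, Coq8a, BC064078 and Fam155a. They are the 8 highest of all tested genes and are given without a test.

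Of 9 Hoxb genes 4 were tested, and all 4 were called higher in bcCML in both genotypes. Of all genes, 36.9% were called in either direction between the wild-type leukaemias and 45.1% between the mutant ones. Hoxb5 and Hoxb6, and Hoxc4 and Hoxc5 of the Hoxc cluster, averaged under 16 units in both AML groups and passed the filter through the bcCML arrays, so they had to read higher there and their count is no result. Hoxb3 and Hoxb4 averaged above 16 units in both AML groups, with log2 differences of 4.74 ± 0.70 and 2.70 ± 0.33 between the wild-type leukaemias (bcCML minus AML, limma adjusted p = 0.000495 and 0.000140). In AML wild-type cells Hoxb3 averaged 75.2 units with an SD of 95.9, above its mean. Its difference ran from 4.19 to 5.81 with an array left out. Hoxb5 averaged 1535 ± 362 units in bcCML mutant, 1270.0 ± 247 in bcCML wild-type, 7.04 ± 0.50 in AML mutant and 9.77 ± 5.0 in AML wild-type cells, at least 94.1-fold higher in bcCML for the mutants and at least 78.3-fold for wild-type. Of 7 Hoxc genes 4 were tested, with 4 called higher in bcCML for the mutants and 3 for wild-type. These counts include Hoxc4 and Hoxc5 and so are no result either. Hoxc4 averaged 3022 ± 694 units in bcCML wild-type and 8.59 ± 3.63 in AML wild-type cells, at least 186-fold higher in bcCML. These bounds set the mean of the brighter group's log2 values against 16 units. Hoxc8, which averaged above 16 units in all groups, differed by 2.32 ± 0.43 between the wild-type leukaemias (limma adjusted p = 0.00190) and by 1.28 ± 0.43 between the mutant ones (adjusted p = 0.0315, lost under 5 of 21 alternatives with p up to 0.115). The Hoxd genes gave 0 of 8 that passed the filter.

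**Figure D4:**
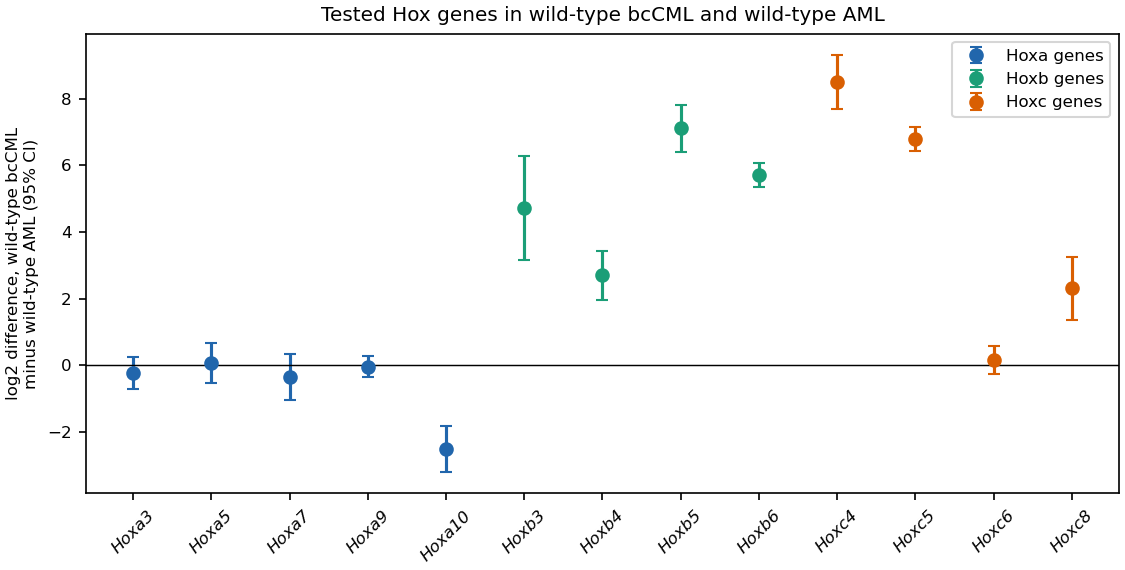
Log2 difference, wild-type bcCML minus wild-type AML, of every tested Hoxa, Hoxb and Hoxc gene, with 95% intervals from limma. The 4 Hoxb genes and Hoxc4, Hoxc5 and Hoxc8 lie above 2, and the 5 Hoxa genes lie between -2.51 and 0.07; the fitted values of Hoxb5, Hoxb6, Hoxc4 and Hoxc5 rest on AML means below 16 units and are no sizes.

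Of 9 partners of Hox proteins 6 were tested. Meis1, which binds DNA with Hoxa9 and Pbx proteins, averaged 503 ± 125 units in bcCML mutant, 392 ± 17.2 in bcCML wild-type, 821 ± 101 in AML mutant and 966 ± 66.3 in AML wild-type cells. It was lower in bcCML between the wild-type leukaemias (log2 -1.30 ± 0.18, limma adjusted p = 0.000346) and between the mutant ones (-0.73 ± 0.18, adjusted p = 0.00843), the same direction as Hoxa10. Pknox1, a relative of Meis1, was lower in bcCML as well (-1.45 ± 0.18 for wild-type, limma adjusted p = 0.000175), and Pbx4 was higher (2.22 ± 0.37, adjusted p = 0.00111). In all, 1 partner was higher and 2 were lower between the wild-type leukaemias, and 2 were higher and 3 lower between the mutant ones, beside 36.9% and 45.1% of all genes called in these comparisons.

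Pbx3, a partner of Hoxa9 in leukaemia, was the partner that fell in Msi2 mutant AML. It averaged 693 ± 207 units in AML mutant and 2945 ± 838 in AML wild-type cells, a log2 difference of -2.08 ± 0.25 (limma adjusted p = 0.00514). In bcCML it averaged 3527 ± 345 units in mutant and 3976 ± 82.2 in wild-type cells (-0.18 ± 0.25, adjusted p = 0.916). In AML, granulocyte marker sums did not overlap between the genotypes (135379 to 167404 units in mutant and 62859 to 115626 in wild-type arrays), nor did the T and NK cell sums, carried by Nkg7 (5225 to 8055 in mutant and 1511 to 5046 in wild-type), or the B cell sums (564 to 793 in mutant and 803 to 1127 in wild-type), and their part in this fall was not tested. The difference between the Pbx3 effects was 1.90 ± 0.35 with a limma adjusted p of 0.107. Of 21 alternatives, only the fit of the 6 AML arrays alone lost the call in AML (limma adjusted p = 0.153). Hoxb4 was higher in AML mutant cells, with 232 ± 63.1 units against 82.6 ± 45 in AML wild-type cells (1.59 ± 0.33, limma adjusted p = 0.0472). That call was lost under 15 of 21 alternatives, among them leaving out any single array but AML wild-type array 3, with adjusted p up to 0.272.

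Among 18 genes known as targets of Hoxa9 and Meis1, 17 were tested. Msi2 mutant AML had 1 of them lower, Adgrl4, an adhesion receptor, at 311 ± 129 units against 2090 ± 767 in AML wild-type cells (log2 -2.74 ± 0.38, limma adjusted p = 0.0116, and 0.153 on the 6 AML arrays alone). In AML 1.52% of all genes were called in either direction. With limma, 4 of 17 had an unadjusted p under 0.05 there, beside 14.2% of all genes. The 3 of them other than Adgrl4 also had negative differences, which did not pass: Flt3 (-3.09 ± 0.78, limma adjusted p = 0.0926), Cd34 (-2.70 ± 0.69, adjusted p = 0.0946) and Sox4 (-1.57 ± 0.46, adjusted p = 0.144). Cd34 arrays overlapped, with 101 to 312 units in AML mutant and 304 to 1800 in AML wild-type. Granulocyte marker sums differed between these groups as well, and their part in the values of these targets was not tested. In bcCML limma called 0, beside 0.139% of all genes, with 1 of 17 at an unadjusted p under 0.05, beside 8.32% of all genes. Between the wild-type leukaemias 3 of the 17 were higher in bcCML and 3 lower, beside 36.9% of all genes called. The kinase gene Pim1 was higher in bcCML (log2 1.93 ± 0.33, limma adjusted p = 0.00118), and Lmo2, a stem cell transcription factor, was lower (-1.62 ± 0.13, adjusted p = 6.04e-06). Between the mutant leukaemias 5 were higher and 4 lower, beside 45.1% of all genes called. Adgrl4 is among the lower genes of both comparisons, with fitted log2 differences of -8.14 for wild-type and -5.72 for the mutants. From its AML levels this puts it under 16 units in bcCML. It passed the filter through the AML arrays, so it had to read lower in bcCML and these counts are no result.

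Of 21 activators that keep Hoxa genes on, 20 were tested, and limma called 0 for the Msi2 effect in AML or in bcCML, with 1 at an unadjusted p under 0.05 in each. Of all genes, 1.52% were called in AML and 0.139% in bcCML, and 14.2% and 8.32% had such a p. With shares this small, 0 calls in a short list says little about its genes. Between the wild-type leukaemias 4 of the 20 were higher in bcCML and 1 lower, beside 36.9% of all genes called. Mllt3, the gene of AF9, averaged 1586 ± 797 units in bcCML wild-type and 17.9 ± 6.81 in AML wild-type cells (log2 6.39 ± 0.42, limma adjusted p = 1.66e-06). Whether this probe set reads the fusion transcript was not tested. Aff1, the gene of another common MLL fusion partner, was lower in bcCML (-0.92 ± 0.17, adjusted p = 0.00195). Of 17 Polycomb repressors 14 were tested, with 0 called by limma for Msi2 in either leukaemia and 1 at an unadjusted p under 0.05 in each. The shares of all genes are those given for the activators, and the same limit holds. Cbx8, a Polycomb subunit that also binds AF9, averaged 12.2 ± 2.84 units in bcCML wild-type and 83.5 ± 20.4 in AML wild-type cells, at least 5.11-fold lower in bcCML, and Jarid2, a partner of Polycomb repressive complexes, was lower (log2 -0.69 ± 0.18, limma adjusted p = 0.0112), while Rbbp7, a histone-binding subunit, was higher (0.52 ± 0.13, adjusted p = 0.00886). In all, 2 of the 14 were called higher and 3 lower in bcCML between the wild-type leukaemias, and 1 higher and 4 lower between the mutant ones, beside 36.9% and 45.1% of all genes. The lower genes include Cbx8 and, in both comparisons, Phf19, which averaged 8.57 units in bcCML mutant and 8.80 in bcCML wild-type cells. Phf19 passed the filter through the AML arrays, so it had to read lower in bcCML and these counts are no result.

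Next to the cluster, Skap2, on the side of Hoxa2, averaged 2840 ± 75.1 units in bcCML wild-type and 4817 ± 1233 in AML wild-type cells (log2 -0.73 ± 0.21, limma adjusted p = 0.0185), a call lost without AML wild-type array 2 or array 3 (adjusted p up to 0.0647). Between the mutant leukaemias it was also lower in bcCML (-1.18 ± 0.21, limma adjusted p = 0.00104). Hibadh, on the Hoxa13 side, was higher in bcCML (1032 ± 122 against 441 ± 102 units in wild-type, log2 1.25 ± 0.19, limma adjusted p = 0.000510). With limma 0 of the 5 tested neighbours were called for the Msi2 effect in AML or bcCML, beside 1.52% and 0.139% of all genes. An unadjusted p under 0.05 was found for 0 and 1 of them, beside 14.2% and 8.32% of all genes. Evx1, just beyond Hoxa13, read 4.49 to 4.52 units on every array, and the caudal-type factors Cdx1, Cdx2 and Cdx4, which activate Hox genes in early embryos, stayed between 4.5 and 5.01 units.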

How the data were processed

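Per the submitters' processing notes, GCRMA (version not given in the sources used here) produced the deposited linear intensity of each probe set. It subtracts background by probe sequence and normalizes between arrays, which presses dim probe sets onto a floor, so differences of dim genes are only partly measured. Log2 of the intensity was taken with no pseudocount. Probe sets above log2 4 on at least 3 arrays were kept, the one of highest mean stood for its gene, and limma 3.58.1 (R 4.3.3) fitted 10817 genes on all 12 arrays (8 residual and 2.19 prior degrees of freedom). Tests were two-sided and adjusted by Benjamini-Hochberg over all genes at 0.05. The fit was tested on simulated data. Every Hoxa gene of the list was described; the context genes named are among the up to 4 of each list with the smallest p in a comparison; likeness takes the 8 highest Pearson correlations. Members and lists were chosen with earlier results of these data known. The number of arrays limits the precision.

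Gene symbols came from GEO's platform annotation: 34945 probe sets had 1 symbol, 932 several and 9160 were not listed. Replicate arrays correlated at 0.978 to 0.992. Same-numbered bcCML arrays deviated together (r = 0.396, 0.364 and 0.278), so from the data, not a stated design, their numbers were treated as pairs in an alternative with a replicate block, while the fit reported has none; AML arrays did not (-0.055, -0.121 and -0.030). The labels do not say whether the arrays came from separate mice, so p-values measure the spread between these samples.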

Additional observations from a re-analysis of the deposited data

How the results depend on the processing

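Values of the tested Hoxa genes were recomputed under other settings with 1 value per gene and with each of the 12 arrays left out. Of these 625 values, 27 changed sign, none of them called, and 11 changed call, each for Hoxa3 between the mutant leukaemias. The count of Hoxa genes called in mutant bcCML minus mutant AML, 2, became 1 with no filter on dim probe sets, 1 with the mean of a gene's probe sets and 1 with the replicate block on all 12 arrays, and ran from 1 to 2 with 1 array left out. Hoxa3 then had adjusted p of 0.0786 with no filter, 0.309 with the mean of probe sets and 0.0575 with the replicate block; the opposite value of probe set 1429398_at enters that mean, and the cause of the other losses was not tested. Testing each probe set on its own, which is not among the 625 values, called 3 Hoxa genes there. In that fit Hoxa3 probe set 1427433_s_at lost its call (limma adjusted p = 0.0532). Probe sets 1452421_at of Hoxa3 and 1443803_x_at of Hoxa5 were called (adjusted p = 0.0417 each). Hoxa10 kept its call and direction under every setting run, with log2 differences from -2.71 to -2.33 between the wild-type leukaemias and -2.69 to -2.06 between the mutant ones when arrays were left out. The other counts of Hoxa genes called, 0 for the Msi2 effect in AML, in bcCML, in their mean and in the interaction and 1 between the wild-type leukaemias, stayed the same under all settings, the replicate block in bcCML alone included.

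Over all genes, the 164 calls for Msi2 in AML ran from 43 to 182 with an array left out and from 0 to 228 under other settings. The 15 in bcCML ran from 7 to 22 and from 0 to 25, the 51 of their mean from 4 to 122 and from 22 to 84, and the 0 of the interaction from 0 to 21 and from 0 to 6. The 3996 calls between the wild-type leukaemias ran from 3137 to 4351 and from 3606 to 7524, and the 4875 between the mutant ones from 4003 to 4903 and from 4241 to 9651. Signal near the floor limits Hoxa2, Hoxa4 and Hoxa11, for which these arrays set only upper bounds.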
